A study of Mus musculus with 12 samples.

Results

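The whey acidic protein family is a group of small secreted proteins built around the WAP four-disulfide core domain, a compact fold held together by disulfide bonds. Several of its members inhibit serine proteases, and several kill or restrain microbes at epithelial surfaces. In skin they are made both by keratinocytes and by white blood cells, so that a single family can reflect the epidermis and the infiltrate at once. Slpi, the secretory leukocyte protease inhibitor, is the best known of them and blocks neutrophil elastase and cathepsin G.

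The 9 genes described here are Slpi, Wfdc1, Wfdc2, Wfdc3, Wfdc5, Wfdc12, Wfdc17, Wfdc18 and Wfdc21, of 50684 genes in the count table. They were found by gene symbol, and all 9 were among the 19408 genes with enough counts to be tested. The family was chosen because Wfdc21 had been seen to fall in these libraries while neutrophil genes rose. The values of Wfdc21 and of the neutrophil markers are therefore given as a description, with no test, and counts of members that changed are over the other 8.

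RNA came from the ear skin of 8-week-old female C57BL/6 mice. Ear pinnae had received intradermal injections of 5 µl of PBS, of 1 µg IL-17A, of 1 µg IL-36γ or of IL-17A + IL-36γ at 1 µg each. Tissue was taken after 4 days of consecutive treatment. Each of the 4 groups had 3 libraries, and the question was how each cytokine alone and the combination changed gene expression against PBS. The injected cytokines were recombinant proteins in otherwise untreated wild-type mice, and the sample was a piece of whole ear, so that every value is an average over epidermis, dermis, glands, cartilage, muscle and infiltrate.

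The 12 libraries held 25293468 to 34759293 counts in genes. PBS replicate 1 stood apart from the other PBS libraries: the summed level of 10 skeletal muscle markers was 436 CPM (counts scaled to library size) in it, against 3689 and 3202 CPM in PBS replicates 2 and 3. These markers were also low in the IL-17A + IL-36γ group, at 266 to 1410 CPM, and results that change without PBS replicate 1 are given both ways. Keratinocyte markers marked all 12 libraries as skin, with summed levels of 12296 to 21499 CPM for 8 markers of basal epidermis and of 21519 to 44388 CPM for 10 markers of differentiated epidermis.

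The genes lie in 2 clusters and at 1 separate site of the mouse genome (build GRCm38). On chromosome 2 are Wfdc5 (chr2:164176327-164182742), Wfdc12 (chr2:164189231-164190608), Slpi (chr2:164354070-164389095), Wfdc2 (chr2:164562413-164568510) and Wfdc3 (chr2:164731180-164745931). Only Wfdc2 of these is on the plus strand. On chromosome 11, all on the plus strand, are Wfdc17 (chr11:83703991-83706268), Wfdc18 (chr11:83709015-83711348) and Wfdc21 (chr11:83746940-83752642). Wfdc1 (chr8:119666365-119688222) is alone on the plus strand of chromosome 8. The antisense gene A730032A03Rik covers 16.1% of the exon bases of Wfdc12 and 3.49% of those of Wfdc5. The strand setting used in counting is not given in the sources used here, so reads in these stretches could belong to either gene. A730032A03Rik itself had 23 to 58 counts per library.

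The 250 bases before the RefSeq transcription start (GRCm38.p6) were at hand for 6 members: Slpi, Wfdc2, Wfdc3, Wfdc12, Wfdc17 and Wfdc18. Those of 3 members with higher levels after IL-36γ and of 1 with a lower level are shown because the results below turn on them, written 5′ to 3′ along the strand of the gene. Capitals mark matches to a C/EBP motif (TTGCNNAA, either strand). C/EBP factors are transcription factors of myeloid cells and of inflamed epithelium.

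Slpi, chr2:164356508-164356757, minus strand: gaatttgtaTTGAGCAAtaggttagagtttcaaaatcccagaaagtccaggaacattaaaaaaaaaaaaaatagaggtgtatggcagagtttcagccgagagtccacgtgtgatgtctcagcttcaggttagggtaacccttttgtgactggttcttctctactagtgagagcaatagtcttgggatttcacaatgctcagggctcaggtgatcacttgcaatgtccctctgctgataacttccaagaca
Wfdc12, chr2:164190559-164190808, minus strand: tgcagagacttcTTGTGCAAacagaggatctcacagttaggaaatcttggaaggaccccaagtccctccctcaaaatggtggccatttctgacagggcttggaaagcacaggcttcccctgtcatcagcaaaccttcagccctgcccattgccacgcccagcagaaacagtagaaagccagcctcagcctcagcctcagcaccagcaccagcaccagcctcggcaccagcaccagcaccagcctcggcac
Wfdc17, chr11:83703806-83704055, plus strand: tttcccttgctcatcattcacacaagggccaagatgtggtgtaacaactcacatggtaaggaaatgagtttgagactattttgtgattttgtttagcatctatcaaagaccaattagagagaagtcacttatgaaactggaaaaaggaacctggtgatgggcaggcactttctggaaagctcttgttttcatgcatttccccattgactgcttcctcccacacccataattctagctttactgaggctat
Wfdc2, chr2:164562465-164562714, plus strand: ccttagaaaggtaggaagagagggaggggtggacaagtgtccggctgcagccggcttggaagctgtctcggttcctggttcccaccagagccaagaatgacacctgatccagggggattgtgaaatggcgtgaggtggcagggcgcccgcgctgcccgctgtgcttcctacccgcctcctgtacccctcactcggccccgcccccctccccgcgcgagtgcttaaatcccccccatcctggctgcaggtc

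Slpi and Wfdc12 each held 1 match to the C/EBP letters, starting 241 and 238 bases before the start, and the other 4 promoters held none. Of all 27025 promoters of the same length, 9.55% held such a match. No match to the AP-1 letters TGANTCA, the STAT letters TTCNNNGAA or the NF-kappaB motif was in any of the 6 windows, and 6.87%, 7.18% and 7.01% of all promoters held them. The TATA box letters TATAAA stood 31 bases before the start of Wfdc18 and in none of the other 5 windows, against 13% of all promoters. The C and G content was 64.8% for Wfdc2 and 57.2% for Wfdc12, and 42% for Slpi and 41.2% for Wfdc17, around a median of 52% over all promoters. A match of letters is a description of the sequence and not a site of binding.

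In PBS skin the family was mostly Wfdc21, a small secreted protein related to the mammary WDNM1 gene. Scaled by exon length, its level was 167 ± 2.04 CPM per kb (SD, n = 3), followed by Wfdc17 at 35.4 ± 6.71 and Wfdc2 at 12.0 ± 1.99 CPM per kb. Wfdc5 was at 7.78 ± 1.48, Wfdc12 at 3.65 ± 1.92, Slpi at 3.57 ± 1.15, Wfdc1 at 2.76 ± 0.913, Wfdc3 at 1.68 ± 0.196 and Wfdc18 at 0.343 ± 0.177 CPM per kb. In this order the libraries of Wfdc12, Slpi and Wfdc1 overlapped with each other, and those of Wfdc3 with Wfdc12 and Wfdc1, while the remaining neighbours did not overlap.

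Wfdc21 was lower with each step from PBS to the combination. It measured 71.5, 73.2 and 73.0 CPM in the PBS libraries, which lay close together, and 45.9, 65.2 and 64.6 CPM after IL-17A. After IL-36γ it measured 35.5, 20.9 and 31.3 CPM, and after IL-17A + IL-36γ 13.7, 10.2 and 18.7 CPM. No library of any group overlapped with those of another group. The family was chosen for this fall, so the separation is a description with no test. The log2 fold change against PBS was -0.31 (SE 0.215) after IL-17A, -1.31 (SE 0.220) with IL-36γ and -2.35 (SE 0.230) after the combination, the last a level 5.10-fold lower. In bulk tissue, fewer cells of a type and less RNA per cell cannot be told apart.

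**Figure D1:**
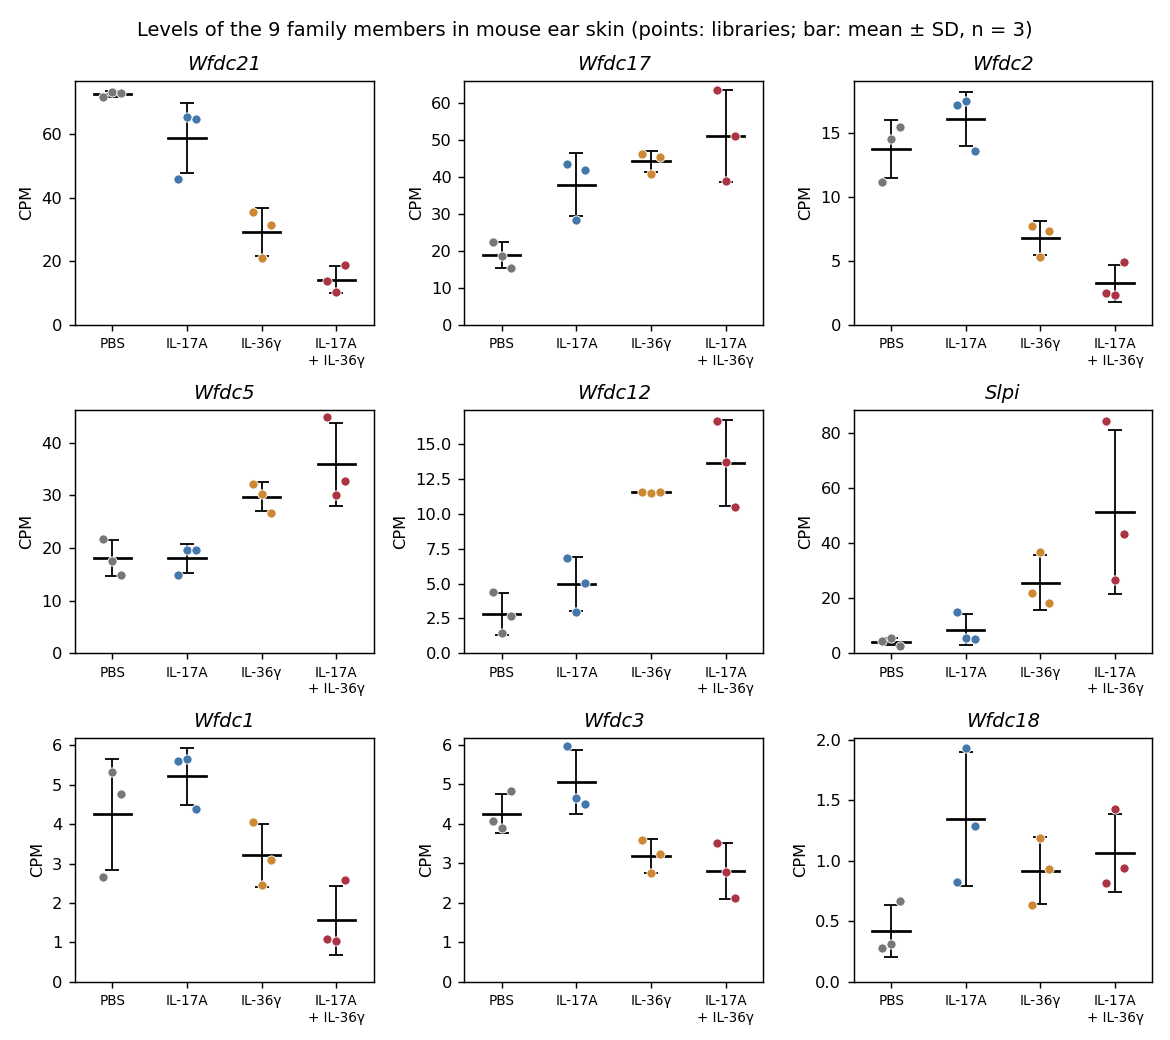
Levels of the 9 genes in CPM (linear axis from 0, a scale of its own for each gene) in the 12 libraries, as 1 point per library with the group mean and SD (n = 3). Wfdc21, Wfdc2 and Wfdc1 are lowest after IL-17A + IL-36γ, Slpi, Wfdc12, Wfdc17 and Wfdc5 are highest there, and Wfdc18 stays under 2 CPM throughout.

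Against PBS, the other 8 members moved in both directions after IL-17A + IL-36γ. Slpi, Wfdc12, Wfdc17 and Wfdc18 rose and Wfdc2 and Wfdc1 fell, each past an adjusted p of 0.05 and a log2 change of 1. These are 4 raised and 2 lowered of 8, where 7.35% of all genes tested were raised and 6.06% were lowered. Wfdc5 and Wfdc3 had an adjusted p under the threshold with a change under 1 on the log2 scale. After IL-36γ alone, 3 members were raised (Slpi, Wfdc12 and Wfdc17) and 1 was lowered (Wfdc2), against 5.11% and 1.98% of all genes. After IL-17A alone, 2 members were raised (Wfdc17 and Wfdc18) and 0 were lowered, against 1.07% and 1.03% of all genes. The 3 comparisons share the PBS libraries. Without PBS replicate 1, 3 members were called after IL-17A, 4 with IL-36γ and 6 after the combination, where Wfdc18 lost its call and Wfdc5 gained one. The genes called among all genes then went from 407 to 913, from 1377 to 1799 and from 2603 to 3170.

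**Figure D2:**
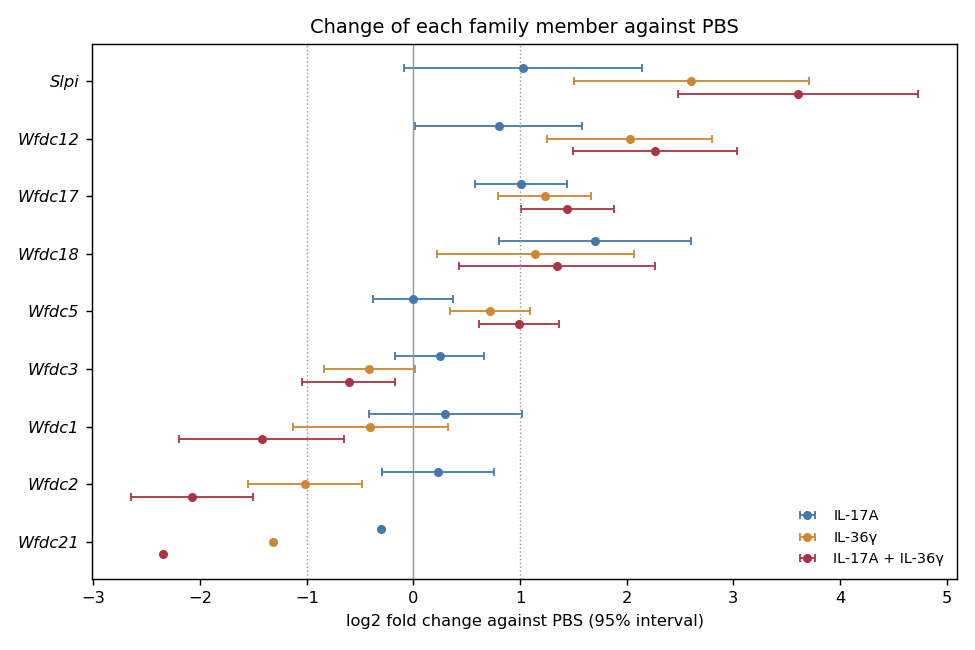
Log2 fold change against PBS of each gene after each cytokine and after the combination, with its 95% interval from the fit of all 12 libraries (Wfdc21 without an interval, since it was not tested). Dotted lines mark a log2 change of 1 in either direction, and the combination reaches from 3.60 for Slpi to -2.35 for Wfdc21.

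Slpi, the inhibitor of neutrophil serine proteases, showed the largest rise of the family after IL-36γ and after the combination. The PBS libraries measured 4.46, 5.44 and 2.76 CPM, and the IL-17A libraries 15.1, 5.55 and 5.27 CPM. IL-36γ gave 21.8, 36.9 and 18.4 CPM, and IL-17A + IL-36γ gave 84.6, 26.6 and 43.3 CPM. All libraries with IL-36γ were above all those without it, and those of the combination overlapped with those of IL-36γ alone. The rise against PBS was 6.08-fold after IL-36γ (log2 2.60, SE 0.505, adjusted p = 0.00330) and 12.2-fold after the combination (log2 3.60, SE 0.517, adjusted p = 0.000227). After IL-17A the log2 change was 1.03 (SE 0.511, adjusted p = 0.193) and rested on IL-17A replicate 1, without which it was 0.33 (adjusted p = 0.741). That library also had the highest summed level of the 7 markers of activated epidermis in its group, 2349 CPM against 655 and 605 CPM, and of the 9 neutrophil markers, 888 CPM against 388 and 729 CPM. The part of either list in the level of Slpi was not tested.

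Wfdc12, an antibacterial member of the family, rose with IL-36γ. Its levels were 4.40, 1.44 and 2.64 CPM with PBS, 6.84, 2.96 and 5.07 CPM after IL-17A, and 11.6, 11.5 and 11.5 CPM after IL-36γ. The combination gave 16.7, 13.7 and 10.5 CPM. The IL-36γ libraries were nearly equal to each other and lay above every PBS and IL-17A library. The log2 change was 2.03 (SE 0.353, adjusted p = 0.00179) after IL-36γ and 2.26 (SE 0.355, adjusted p = 0.000399) after the combination. After IL-17A it was 0.80 (adjusted p = 0.152), and 1.28 (adjusted p = 0.0225) without PBS replicate 1, the PBS library with the highest level of Wfdc12.

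Wfdc5, the neighbour of Wfdc12 on chromosome 2, changed in the same direction by less. The PBS libraries measured 21.8, 17.5 and 14.9 CPM and the IL-17A libraries 14.8, 19.6 and 19.7 CPM, and these groups overlapped. After IL-36γ it measured 32.1, 30.3 and 26.7 CPM and after the combination 44.8, 30.1 and 32.7 CPM, all above the PBS libraries. The log2 change was 0.72 (SE 0.172, adjusted p = 0.0100) after IL-36γ and 0.99 (SE 0.173, adjusted p = 0.000793) after the combination, just under the fold threshold. It was 1.15 without PBS replicate 1, 1.09 without IL-17A + IL-36γ replicate 2 and 1.06 without IL-17A + IL-36γ replicate 3, and passed in each.

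Wfdc17, a gene of activated macrophages and microglia, was higher after each injection of cytokine. It measured 22.5, 18.6 and 15.4 CPM with PBS, 43.7, 28.3 and 42.0 CPM after IL-17A, 46.3, 41.0 and 45.5 CPM after IL-36γ and 63.6, 38.9 and 51.1 CPM after the combination. Every treated library was above every PBS library, and the treated groups overlapped with each other. The log2 change was 1.23 (SE 0.199, adjusted p = 0.00116) after IL-36γ and 1.44 (SE 0.200, adjusted p = 0.000183) after the combination. After IL-17A it was 1.01 (SE 0.199, adjusted p = 0.0182), at the fold threshold, and it lost its call in 12 of 19 alternatives, with a log2 change of 0.84 to 1.16.

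Wfdc18, the mammary gene WDNM1, had the lowest level of the family in each of the 4 groups. It measured 0.277, 0.311 and 0.667 CPM with PBS, 0.827, 1.93 and 1.29 CPM after IL-17A, 0.632, 1.19 and 0.930 CPM after IL-36γ, and 0.819, 1.43 and 0.936 CPM after the combination. Each IL-17A and combination library was above the PBS libraries, and IL-36γ replicate 1 was not. The log2 change was 1.70 (SE 0.412, adjusted p = 0.0297) after IL-17A, 1.14 (SE 0.424, adjusted p = 0.0620, under 0.05 in 3 of 19 alternatives) with IL-36γ and 1.35 (SE 0.422, adjusted p = 0.0219) after the combination. In the IL-17A group the call did not hold on leaving out PBS replicate 2, PBS replicate 3 or IL-17A replicate 1, 2 or 3, with an adjusted p of 0.103, 0.0878, 0.0786, 0.0997 and 0.0502. The call after the combination was lost without PBS replicate 1 (adjusted p = 0.0610), PBS replicate 2 (adjusted p = 0.0766) or IL-17A + IL-36γ replicate 2 (adjusted p = 0.0956).

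Wfdc2, known in humans as the epididymal protein HE4 and made by many glandular and ductal epithelia, fell with IL-36γ. The PBS libraries measured 11.2, 14.5 and 15.5 CPM and the IL-17A libraries 17.1, 17.5 and 13.6 CPM. IL-36γ gave 7.72, 5.27 and 7.33 CPM, and the combination gave 2.497, 2.304 and 4.883 CPM. Libraries with IL-36γ were all below those without it, and all combination libraries were below all IL-36γ libraries. The log2 change was 0.23 (SE 0.239, adjusted p = 0.543) after IL-17A, -1.02 (SE 0.246, adjusted p = 0.0103) with IL-36γ and -2.08 (SE 0.261, adjusted p = 0.000108) after the combination. The value after IL-36γ was at the fold threshold and dropped under it without PBS replicate 2 (-0.98), PBS replicate 3 (-0.93) or IL-36γ replicate 2 (-0.86).

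Wfdc1 was low throughout and fell after the combination. It measured 2.66, 5.32 and 4.76 CPM with PBS, 5.60, 5.65 and 4.38 CPM after IL-17A, 4.06, 2.47 and 3.10 CPM after IL-36γ, and 1.09, 1.02 and 2.58 CPM after the combination. PBS replicate 1 was close to the highest combination library. The log2 change after the combination was -1.42 (SE 0.356, adjusted p = 0.00687), and -1.67 (adjusted p = 0.00168) without PBS replicate 1. It was 0.30 (adjusted p = 0.566) after IL-17A and -0.40 (adjusted p = 0.377) after IL-36γ. The muscle markers summed to 436 CPM in PBS replicate 1 and to 451, 266 and 1410 CPM in the combination libraries, against 1280 to 2359 CPM with IL-36γ and 2286 to 3217 CPM with IL-17A, and the part of muscle in the sample in the level of Wfdc1 was not tested.

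Wfdc3 measured 4.07, 3.88 and 4.82 CPM with PBS, 5.97, 4.65 and 4.51 CPM after IL-17A, 3.59, 2.74 and 3.24 CPM after IL-36γ, and 3.51, 2.78 and 2.11 CPM after the combination. The libraries of IL-36γ and of the combination were below the PBS libraries. The log2 change was -0.42 (SE 0.196, adjusted p = 0.128) after IL-36γ and -0.61 (SE 0.199, adjusted p = 0.0267) after the combination, under the fold threshold.

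Added up per kb of exon, the family changed in make-up more than in amount. The summed level of the 9 genes was 234 ± 5.59 CPM per kb after PBS, 248 ± 14.5 after IL-17A, 210 ± 17.4 with IL-36γ and 211 ± 56.9 after the combination (SD, n = 3). Its libraries overlapped between PBS and the combination, which ranged from 155 to 268 CPM per kb. Division by exon length weights Wfdc21 (434 bases) above Slpi (1180 bases) and Wfdc5 (2322 bases). The size and direction of the change in the sum depend on this scaling. The share of Wfdc21 in this sum went from 71.4% after PBS to 54.2% after IL-17A, 31.8% with IL-36γ and 15.8% after the combination. The share of Wfdc17 went from 15.0% to 28.7%, 39.6% and 45.7%, and that of Slpi from 1.52% to 3.00%, 10.6% and 19.6%. Wfdc17 was thus at the head of the family in the combination group, where it reached 96.1 ± 23.2 CPM per kb, against 43.6 ± 25.3 for Slpi and 32.7 ± 9.91 for Wfdc21. Slpi and Wfdc21 overlapped there. These shares include Wfdc21, whose fall chose the family, and are a description.

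**Figure D3:**
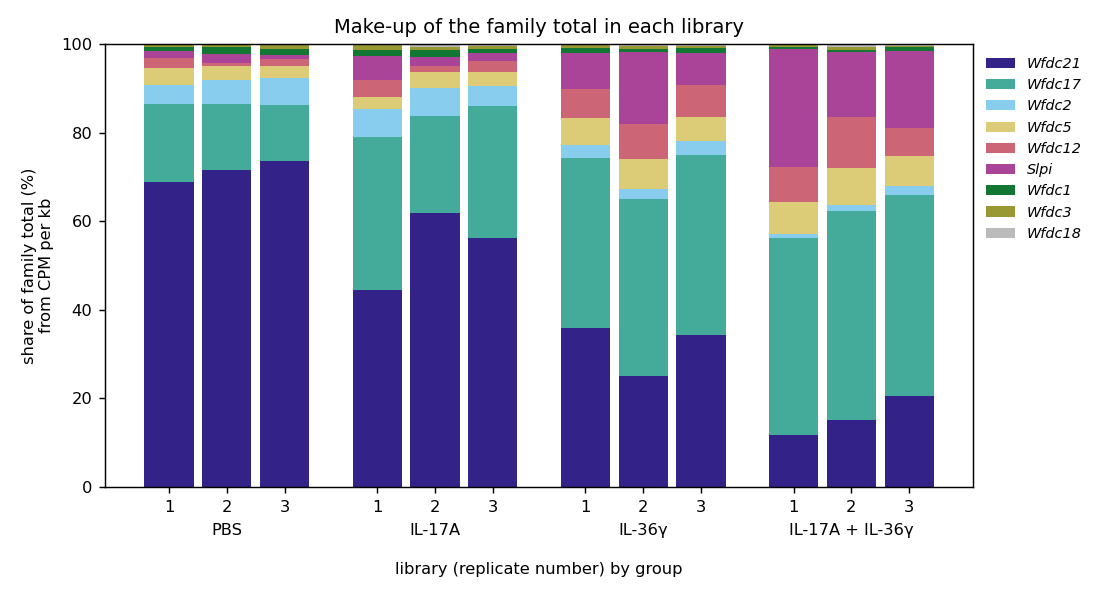
Share of each of the 9 genes in the summed level of the family (CPM per kb of exon, in percent) in the 12 libraries, grouped by injection. Wfdc21 takes 71.4% of the sum on average after PBS and 15.8% after IL-17A + IL-36γ, and Wfdc17 and Slpi take most of the remainder there.

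Against IL-17A alone, the members differed most where IL-36γ had been added. The combination against IL-17A alone raised 2 members and lowered 2, against 4.46% and 4.49% of all genes. Slpi (log2 2.58, SE 0.491, adjusted p = 0.00251) and Wfdc12 (log2 1.46, SE 0.344, adjusted p = 0.00742) were higher with IL-36γ added, and Wfdc2 (-2.31, SE 0.263, adjusted p = 0.000220) and Wfdc1 (-1.72, SE 0.357, adjusted p = 0.00385) were lower. IL-36γ against IL-17A raised 1 member (Wfdc12, log2 1.22, adjusted p = 0.0493) and lowered 1 (Wfdc2, -1.25, adjusted p = 0.0147), against 1.25% and 0.366% of all genes. The call of Wfdc12 in that comparison was lost in 9 of 19 alternatives, while Slpi, at 1.58 (adjusted p = 0.0651), passed in 6 of them.

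The combination against IL-36γ alone raised 0 and lowered 0 of the 8 members in edgeR, where 0% of all genes were raised and 0.0103% were lowered. At an unadjusted p under 0.05 there were 3 members and 2938 of all 19408 genes, and DESeq2 called 1 member and 115 of all genes. With the replicate number as a block, edgeR called 0 members and 0 of all genes. The lowest adjusted p was that of Wfdc2, at 0.127 for a log2 change of -1.06 (95% interval -1.63 to -0.48). Slpi had a change of 1.00 (95% interval 0.01 to 1.99, adjusted p = 0.326) and Wfdc1 of -1.02 (95% interval -1.80 to -0.23, adjusted p = 0.223). Wfdc17 had a change of 0.21 (95% interval -0.21 to 0.63) and Wfdc12 of 0.24 (95% interval -0.48 to 0.95). Wfdc21 was 2.05-fold lower with IL-17A added (log2 -1.04).

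Whether the combination departed from the sum of the single changes on the log2 scale was asked by the interaction term. An adjusted p under 0.05 was reached by 0 of the 8 members in edgeR, against 0.551% of all genes, with 4 members and 4373 of all 19408 genes at an unadjusted p under 0.05. DESeq2 called 1 member and 2486 of all genes. Wfdc2 had an interaction of -1.29 (SE 0.356, adjusted p = 0.0825), Wfdc1 of -1.32 (SE 0.488, adjusted p = 0.148), Wfdc17 of -0.80 (SE 0.277, adjusted p = 0.127) and Wfdc18 of -1.50 (SE 0.568, adjusted p = 0.155). A value below 0 means that the combination was lower than the single changes add up to. For Slpi the value was -0.03 (95% interval -1.48 to 1.43), which leaves a wide range in either direction, and it was above 0 in 7 alternatives.

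The neutrophil markers, which belong to the reason for choosing the family, were far higher in the treated groups. Their summed level was 20.6 to 102 CPM with PBS, 388 to 888 CPM after IL-17A, 2289 to 4851 CPM after IL-36γ and 7630 to 10072 CPM after the combination, and of the markers only Ly6g was at 0 in all PBS libraries. The median log2 change of the 9 markers was 1.84 in the IL-17A group, 3.03 in the IL-36γ group and 4.24 in the combination group, where the median of all genes was 0.04, -0.02 and -0.03. Most of the sum in the treated groups was S100a8 and S100a9, with means of 3359 and 4975 CPM after the combination. These subunits of calprotectin are made by activated keratinocytes too, so the sum cannot be read as neutrophils alone.

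**Figure D4:**
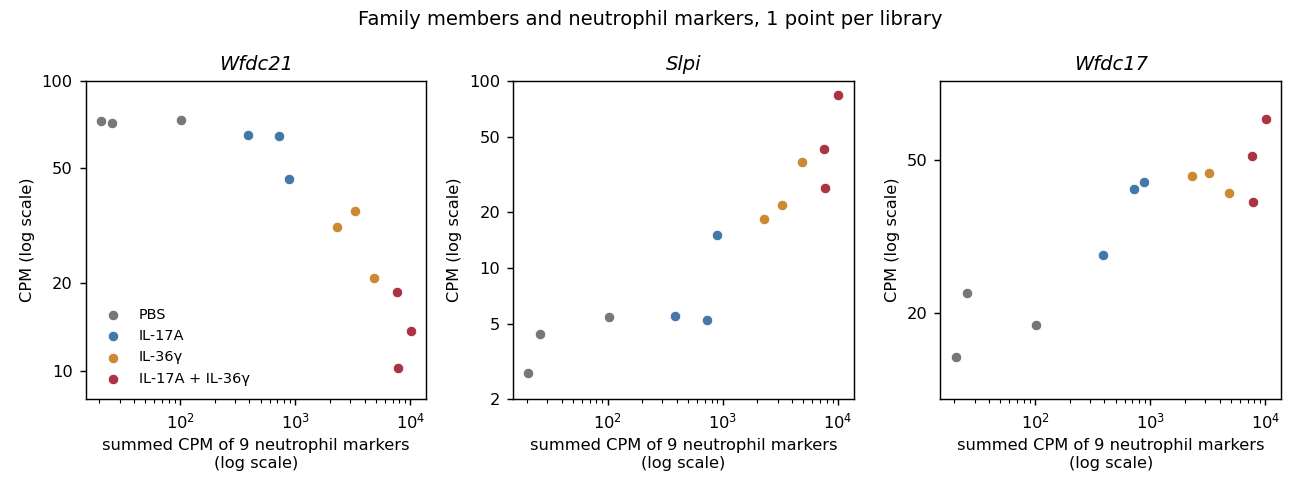
Level of Wfdc21, Slpi and Wfdc17 (CPM, log axis) against the summed level of 9 neutrophil markers (CPM, log axis), with 1 point per library and colours for the 4 groups. The marker sum, in the treated groups mostly S100a8 and S100a9, spans 20.6 to 10072 CPM. Groups with a higher sum have a lower mean of Wfdc21 and a higher mean of Slpi and Wfdc17.

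Monocyte and macrophage markers were higher as well, and beside Wfdc17 their values were as follows. Their summed level was 813 to 973 CPM with PBS, 1334 to 1825 CPM after IL-17A, 2101 to 2329 CPM after IL-36γ and 2027 to 2176 CPM after the combination. Of the 12 markers, 3, 11 and 9 were raised (1.07%, 5.11% and 7.35% of all genes) and 0 lowered, with a median log2 change of 0.80, 1.36 and 1.42. The largest change after the combination was that of Itgam, an integrin of myeloid cells (log2 2.59), followed by Ccr2, a receptor of inflammatory monocytes (log2 2.11), and Adgre1, a macrophage surface receptor (log2 1.82). The part of these cells in the level of Wfdc17 was not tested.

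Epidermal and glandular markers are given beside Slpi, Wfdc12 and Wfdc2. Counts after the combination stand against 7.35% of all genes raised and 6.06% lowered by it. Of 7 markers of activated epidermis, 1 was raised by IL-17A (1.07% of all genes), 6 by IL-36γ (5.11%) and 6 by the combination. Their summed level went from 329 to 538 CPM with PBS to 6619 to 11349 CPM after the combination. Of the 10 markers of differentiated epidermis 3 were raised and 1 lowered after the combination, with a median log2 change of 0.20. The 6 sebaceous gland markers summed to 5877 to 9488 CPM with PBS, to 3755 to 5020 CPM after IL-36γ and to 3024 to 3811 CPM after the combination, with 1 of 6 lowered after the combination. The 8 hair follicle markers summed to 18.4 to 25.8 CPM with PBS and to 2.21 to 19.1 CPM after IL-17A. They summed to 4.20 to 17.9 CPM after IL-36γ and to 3.51 to 11.6 CPM after the combination. Of these 8, 2 were lowered by IL-17A (1.03% of all genes), 2 by IL-36γ (1.98%) and 3 by the combination. Of the other lists, 0 of 8 fibroblast and 0 of 5 mast cell markers were called after the combination, 3 of 6 cartilage markers were lowered, and of 5 T cell markers 1 was raised and 1 lowered. The part of glands and follicles in the levels of Wfdc2 and Wfdc21 was not tested.

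Serine proteases are the enzymes that such inhibitors act on. Of 10 serine proteases of neutrophils, mast cells and epidermis, 8 were tested. Of these, 2 were raised and 1 lowered after the combination, against 7.35% and 6.06% of all genes. Their median log2 change was 0.09 over changes from -1.11 to 3.91. Klk14 and Klk8, kallikreins of the upper epidermis, were raised by 3.91 (SE 0.599, adjusted p = 0.000344) and 1.66 (SE 0.238, adjusted p = 0.000225) on the log2 scale. Klk14 was low throughout, with means of 0.0672 CPM with PBS and 1.08 CPM after the combination and at most 41 counts in any library. Klk8 went from 34.7 to 110 CPM. Ctsg, cathepsin G, was lowered (-1.11, SE 0.381, adjusted p = 0.0328). Elane, neutrophil elastase, had at most 1 count in any library and Prtn3, proteinase 3, at most 8, so no change in either was detectable at this depth. As background, these granule proteases are transcribed in bone marrow precursors and carried as protein by mature neutrophils. Of 6 markers of such precursors 1, Ltf, had enough counts to be tested, with at most 29 in any library. Ltf was lowered by IL-36γ (log2 -2.65, SE 0.805, adjusted p = 0.0290), as were 1.98% of all genes. After the combination its log2 change was -0.62 (SE 0.626, adjusted p = 0.445).

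Most other genes with the same domain were nearly silent in ear skin. Of 14 listed, 12 had too few counts to be tested. Wfikkn2, an antagonist of growth and differentiation factors of the TGF-β family, went from 3.84 CPM with PBS to 1.75 CPM after the combination (log2 -1.13, SE 0.217, adjusted p = 0.00149). Wfikkn1 was at 3.01 and 2.93 CPM (log2 -0.04, adjusted p = 0.903).

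The chromosome 2 cluster did not change in 1 direction as a whole, and on chromosome 11 the only lower member was the one whose fall chose the family. On chromosome 11, Wfdc17 and Wfdc18 were raised by the combination and Wfdc21, which was not tested, was lower. On chromosome 2, Slpi and Wfdc12 were raised and Wfdc2 was lowered, with 5 other tested genes between Slpi and Wfdc2. Within 200 kb of the chromosome 11 cluster 10 other genes were tested, of which 5 were raised and 1 was lowered. Of all genes, 7.35% were raised and 6.06% lowered. Among the 5 were the chemokine genes Ccl5 (log2 2.58), Ccl3 (2.86) and Ccl4 (2.61). Heatr6, beside Wfdc21, had a change of -0.16 (adjusted p = 0.0501). On chromosome 2, 28 other genes were tested within 200 kb of the cluster, of which 2 were raised and 2 lowered, a share near that of all genes. Matn4, a cartilage matrix gene beside Slpi, was lowered (log2 -1.25), and Kcns1, beside Wfdc5, was lowered (log2 -1.70).

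**Figure D5:**
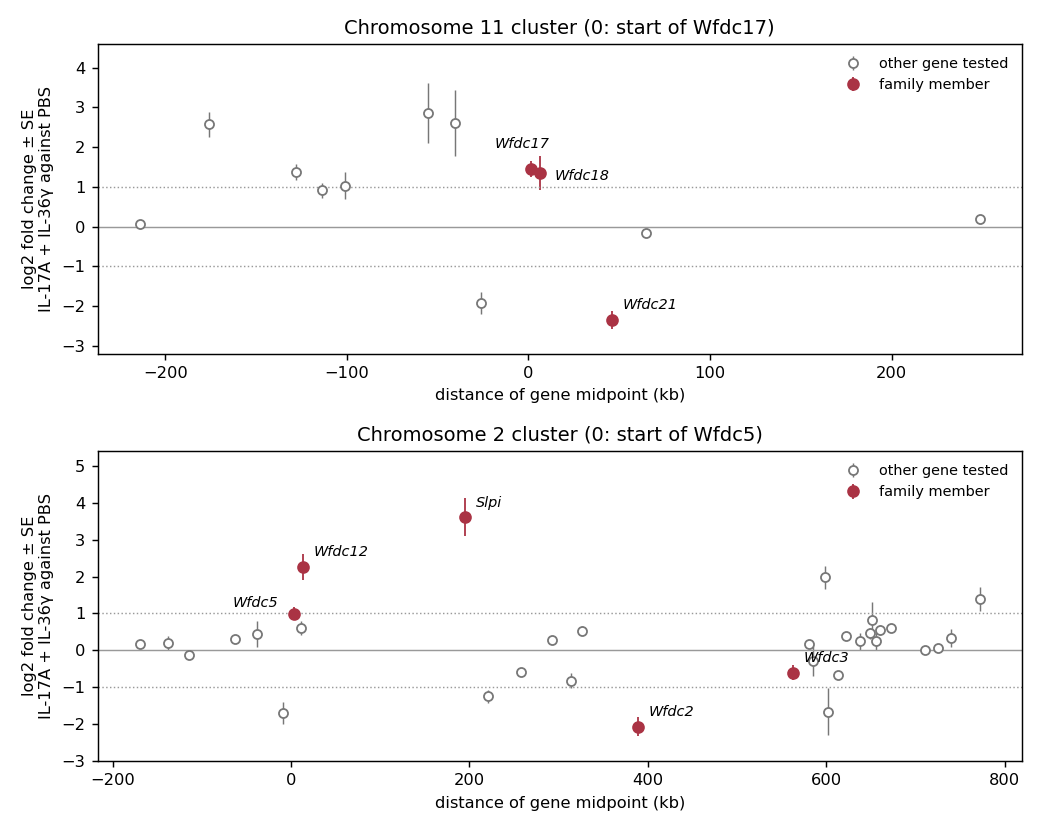
Log2 fold change of IL-17A + IL-36γ against PBS with its SE for every gene tested within 200 kb of the chromosome 11 and chromosome 2 clusters, by distance of the gene midpoint in kb. Filled points are the family and open points other genes. The chromosome 2 cluster holds family members above and below 0. On chromosome 11 the only member below 0 is Wfdc21, at -2.35, which was not tested and whose fall chose the family.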

How the data were processed

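Total RNA of mouse ear skin was sequenced from 12 libraries made with a stranded total RNA kit (paired reads of 76 bases). Per the labels, the authors aligned reads to mm10 with STAR 2.5.2b and counted them with featureCounts of Subread 1.5.1. The deposited values are raw counts per gene, with no normalization. The authors' comparison tables hold their fold changes and p-values from DESeq2 1.30.0 and were used only for their pairing of gene identifiers and symbols.

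Groups were taken from sample titles. The 9 members and all gene lists were chosen with earlier results of these data known. Genes with enough counts for filterByExpr (minimum count 10) were fitted in edgeR 4.0.16 (R 4.3.3) by the quasi-likelihood test, with TMM scaling and 4 group means in 1 fit of all 12 libraries. Adjusted p-values are Benjamini-Hochberg over all 19408 genes tested, two-sided. A gene was called at an adjusted p under 0.05 and an absolute log2 fold change over 1 (for the interaction, the adjusted p alone). Wfdc21 was given no p. CPM use TMM library sizes, and CPM per kb divide by the length of all exons (GENCODE M21). Intervals cover 95%. All 9 members were named whatever their values, and of each list at most the 3 genes with the largest change. On counts simulated for 19141 genes, 200 with a mean above 1 CPM were changed by 2 on the log2 scale in the combination group. Of these, 97.5% were recovered for the combination against PBS (1 unchanged gene called) and 90% for the interaction (12 unchanged genes called). These rates do not cover genes of lower level or smaller changes. Totals of 25293468 to 34759293 counts limit genes under 3 counts a library. Per the study's text the libraries are of individual mice, a random choice of 3 a group. Same-numbered libraries deviated together in all 3 pairs (r = 0.152, 0.242 and 0.298) only for IL-36γ with the combination. No libraries of the same group were copies of each other. Alternatives were other scalings and filters, DESeq2 1.42.0, a replicate block, fits of the compared groups alone and leaving out each library. Promoters are from RefSeq (GRCm38.p6).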

Additional observations from a re-analysis of the deposited data

How the results depend on the processing

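No value that was called reversed its direction in any of the 19 alternatives for a comparison. For IL-17A against PBS, 2 members were called, and 1 with size factors, with library size only, with no filter, with at least 10 counts in every library or with the replicate block, and 0 with only the groups compared. Leaving out 1 library gave 0 to 3. For the combination against IL-36γ the count of 0 became 1 with no filter and 1 with DESeq2 (Wfdc2 in each), and 0 to 1 on leaving out 1 library. For IL-36γ against IL-17A the count of 2 became 0 to 3 on leaving out 1 library. For the interaction the count of 0 became 1 with no filter, 1 with the replicate block (Wfdc17), 1 with DESeq2 and 0 to 1 on leaving out 1 library. Leaving out 1 library gave 5 to 7 for the combination against PBS, 3 to 4 for IL-36γ against PBS (5 with the replicate block or DESeq2, which added Wfdc18) and 4 to 5 for the combination against IL-17A. The causes were not tested. Of 18 pairs of same-numbered libraries, 8 correlated above 0.1 (-0.26 to 0.43), and 8 of 12 libraries correlated best with their own number. All 3 pairs did so only for IL-36γ with the combination, where the replicate block left the count of members at 0. The labels do not say what the numbers mark. Scaling by library size only moved the median of all genes to -0.13 (IL-17A), -0.16 (IL-36γ) and -0.17 (combination) against PBS, and the split of raised and lowered genes from 208 and 199 to 129 and 469, from 992 and 385 to 822 and 698, and from 1426 and 1177 to 1204 and 1667. The counts over all genes behind the background shares moved more than those of the members: for IL-17A against PBS the 407 genes called became 9 with only the groups compared, 11 without PBS replicate 3 and 913 without PBS replicate 1, and for the interaction the 107 became 3 with library size only, 883 with the replicate block, 1534 without PBS replicate 1, 2486 with DESeq2 and 1 without IL-36γ replicate 1. With no scaling by length, an alternative chosen after seeing the data, the share of Wfdc21 was 52.2% after PBS and 8.38% after the combination, that of Wfdc17 13.5% and 29.6%, and that of Slpi 3.02% and 27.8%. The depth limits Wfdc18, at under 2 CPM, most.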

Other observations

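Among 15837 genes with a mean of at least 1 CPM, the levels most like that of Wfdc21 over the 12 libraries were those of Pcbp4, an RNA-binding protein (r = 0.991), Abtb2 (r = 0.991) and Bcl2l2, an inhibitor of apoptosis (r = 0.990). All 3 had lower means with IL-36γ: Abtb2 had a mean of 41.9 CPM in the PBS group, 28.1 CPM in the IL-36γ group and 20.5 CPM in the combination group. The levels most like that of Slpi were those of Sprr2e (r = 0.993), Sprr2h (r = 0.988) and Sprr2i (r = 0.987), which encode proteins of the cornified envelope. Sprr2e went from 0.309 CPM after PBS to 46.2 CPM after the combination. The Sprr2 genes are close copies of each other, so counts could be split among them. The levels most like that of Wfdc17 were those of Cfp, the complement factor properdin of myeloid cells (r = 0.981), and of Rpl13a (r = 0.973) and Tma7 (r = 0.971), which belong to ribosomes and translation. These are Pearson correlations of log2 CPM over libraries that share 4 groups and differ in depth, given as a description with no test.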
